A study of Mus musculus with 12 samples.

Results

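NF-kB targets and chemokines were examined as 10 genes in AML12 cells, an immortalized line of mouse hepatocytes. The genes were chosen by symbol, and each symbol matched 1 of the 24824 genes of the table. They comprise 4 regulators of the NF-kB pathway (Nfkbia, Tnfaip3, Relb and Nfkb2), the adhesion molecule Icam1, the CXC chemokines Cxcl1, Cxcl2 and Cxcl10, and the CC chemokines Ccl2 and Ccl7. All cells were described as wild type, which was not checked here, and were cultured for 24 h in 4 groups of 3 libraries. Group A was kept in growth medium without any agent. Group B was exposed to CuCl2 at 300 μM together with the copper ionophore elesclomol at 40 nM (Cu/ES). Group C was given Cu/ES plus taurocholic acid (TCA), a bile acid conjugated to taurine, at 1000 μM. Group D was given TCA alone at 1000 μM. The labels number the libraries but do not say that they came from separate cultures, so the p-values measure the spread between these libraries.

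NF-kB is a family of dimeric transcription factors. In resting cells the dimer of Rela and Nfkb1 is held in the cytoplasm by the inhibitor IκBα, encoded by Nfkbia, until the IKK kinase marks the inhibitor for degradation and the freed dimer enters the nucleus. In the non-canonical branch the p100 precursor, encoded by Nfkb2, is processed and pairs with RelB. NF-kB raises the transcription of its own brakes, among them Nfkbia and Tnfaip3, the ubiquitin-editing protein A20. It also drives chemokines that call leukocytes into tissue: Cxcl1 and Cxcl2 attract neutrophils, Ccl2 and Ccl7 attract monocytes, and Cxcl10, which also responds to interferons, attracts activated T cells. Icam1 holds leukocytes on the cell surface. In cholestatic liver, hepatocytes are one of the known sources of Cxcl1, Cxcl2 and Ccl2.

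The sequence upstream of a gene's start carries the sites that NF-kB dimers can bind, and it is shown here for 5 of the genes because their transcripts moved differently. The 250 bases upstream of an annotated start site were taken from RefSeq (GRCm38.p6) for 7 of the 10 genes, and Relb, Ccl2 and Ccl7 had no entry. Capitals mark matches to the kB consensus site of 10 bases, searched on both strands with overlapping matches merged. The pattern was GGGRNNYYCC, where R is A or G, Y is C or T and N is any base.
Cxcl1, chr5:90890995-90891244, plus strand: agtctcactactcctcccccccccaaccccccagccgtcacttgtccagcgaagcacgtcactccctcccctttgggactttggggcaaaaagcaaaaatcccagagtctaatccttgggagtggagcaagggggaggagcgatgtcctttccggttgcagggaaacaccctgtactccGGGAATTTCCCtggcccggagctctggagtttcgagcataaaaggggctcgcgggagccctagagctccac
Cxcl2, chr5:90903649-90903898, plus strand: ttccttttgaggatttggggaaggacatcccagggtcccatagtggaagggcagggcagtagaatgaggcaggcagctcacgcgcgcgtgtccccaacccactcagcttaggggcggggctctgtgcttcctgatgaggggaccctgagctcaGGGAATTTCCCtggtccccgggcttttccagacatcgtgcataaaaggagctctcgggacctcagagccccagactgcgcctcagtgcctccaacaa
Cxcl10, chr5:92348890-92349139, minus strand: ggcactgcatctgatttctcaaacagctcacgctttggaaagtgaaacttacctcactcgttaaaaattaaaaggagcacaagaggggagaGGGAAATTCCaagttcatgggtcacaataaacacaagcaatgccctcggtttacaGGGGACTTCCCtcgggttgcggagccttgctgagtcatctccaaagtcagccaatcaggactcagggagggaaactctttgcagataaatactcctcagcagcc
Nfkbia, chr12:55492648-55492897, minus strand: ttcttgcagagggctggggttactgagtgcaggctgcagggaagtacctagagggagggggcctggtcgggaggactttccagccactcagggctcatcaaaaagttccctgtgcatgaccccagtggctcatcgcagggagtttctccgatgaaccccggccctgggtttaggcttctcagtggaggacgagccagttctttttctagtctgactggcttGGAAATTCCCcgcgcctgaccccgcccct
Tnfaip3, chr10:19015411-19015660, minus strand: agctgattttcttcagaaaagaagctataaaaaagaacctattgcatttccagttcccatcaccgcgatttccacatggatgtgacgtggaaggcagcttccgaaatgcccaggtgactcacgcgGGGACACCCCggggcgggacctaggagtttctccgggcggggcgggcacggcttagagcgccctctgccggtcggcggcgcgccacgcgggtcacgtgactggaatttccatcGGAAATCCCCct

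Of the 10 windows of these 7 genes, 8 held a match, against 2382 of the 32851 windows of this length in the table (7.25%), and the 8 belong to 6 genes. The genes were listed as NF-kB targets and chemokines, so this contrast describes the list and is no finding from these data. Cxcl1 and Cxcl2, which are next to each other in the RefSeq gene order, carried the same site, GGGAATTTCCC, ending 60 and 86 bases before the start site, and it lay in a shared run of 14 bases, GGGAATTTCCCTGG. Cxcl10 held a pair of sites, 149 and 93 bases before the start. Nfkbia held 1 site 19 bases before it. Tnfaip3 held sites at 115 and 2 bases in the window shown and no match in its other annotated window. Nfkb2 held matches in each of its annotated windows, some of which overlap each other, and Icam1 held no full match to the pattern in its window. The Icam1 window shared the run TTGGAAATTCC with that of Nfkbia, but there it fell short of the pattern. Sites that depart from the pattern were not searched. These matches describe letters in the sequence and were not measured as bound sites.

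Expression was given as FPKM, read numbers scaled to gene length and library size, so levels can be compared between genes. Library totals recovered from the spacing of the values ran from 29115011 to 39782142 reads. A gene was tested at a mean FPKM of at least 1 over the 12 libraries, which 10615 genes and 9 of the 10 members passed, all but Icam1. Fold changes are differences of log2(FPKM + 1) from limma with Benjamini-Hochberg adjustment over all genes tested, and they understate the change of low genes. A gene was called at an adjusted p under 0.05 with a log2 change above 1 in either direction. Of the markers for hepatocytes, Alb, Apob, Fgb, Fga and Hnf4a were at 0 in every library of group A, whereas the epithelial keratins Krt8 and Krt18 averaged 343.5 and 284.9 FPKM there. The shift of the whole transcriptome was large in the cells given Cu/ES: the median gene had a log2 fold change of -1.10 in group B vs. A and of -1.13 in group C vs. D. As FPKM is scaled to library size, these medians do not measure the number of cells or the RNA per cell. A gene's FPKM also falls where other transcripts take a larger part of the reads. Fewer cells of a type and less RNA per cell cannot be told apart in these bulk libraries.

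In untreated cells Ccl2 was the highest of the 10 genes at 234.5 ± 85.1 FPKM (SD, n = 3). Nfkbia and Cxcl1 followed at 62.5 ± 4.74 and 53.6 ± 6.39 FPKM, with ranges over the libraries that overlapped. Nfkb2 stood at 17.9 ± 0.508 and Ccl7 at 8.998 ± 1.73 FPKM. Relb, Tnfaip3, Cxcl10 and Cxcl2 lay between 5.81 and 1.57 FPKM, and the range of Cxcl10 overlapped with those of Tnfaip3 and Cxcl2. Icam1 was lowest at 0.337 FPKM. With Cu/ES the order changed: Ccl2 stayed first at 37.0 ± 5.81 FPKM, Cxcl10 moved from the eighth rank to the second at 7.40 ± 1.87 FPKM, and Cxcl1 moved from the third rank to the sixth. In group B the range of Nfkbia overlapped with those of Nfkb2 and Cxcl10, and the ranges of Tnfaip3, Cxcl1 and Cxcl2 overlapped with each other.

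**Figure D1:**
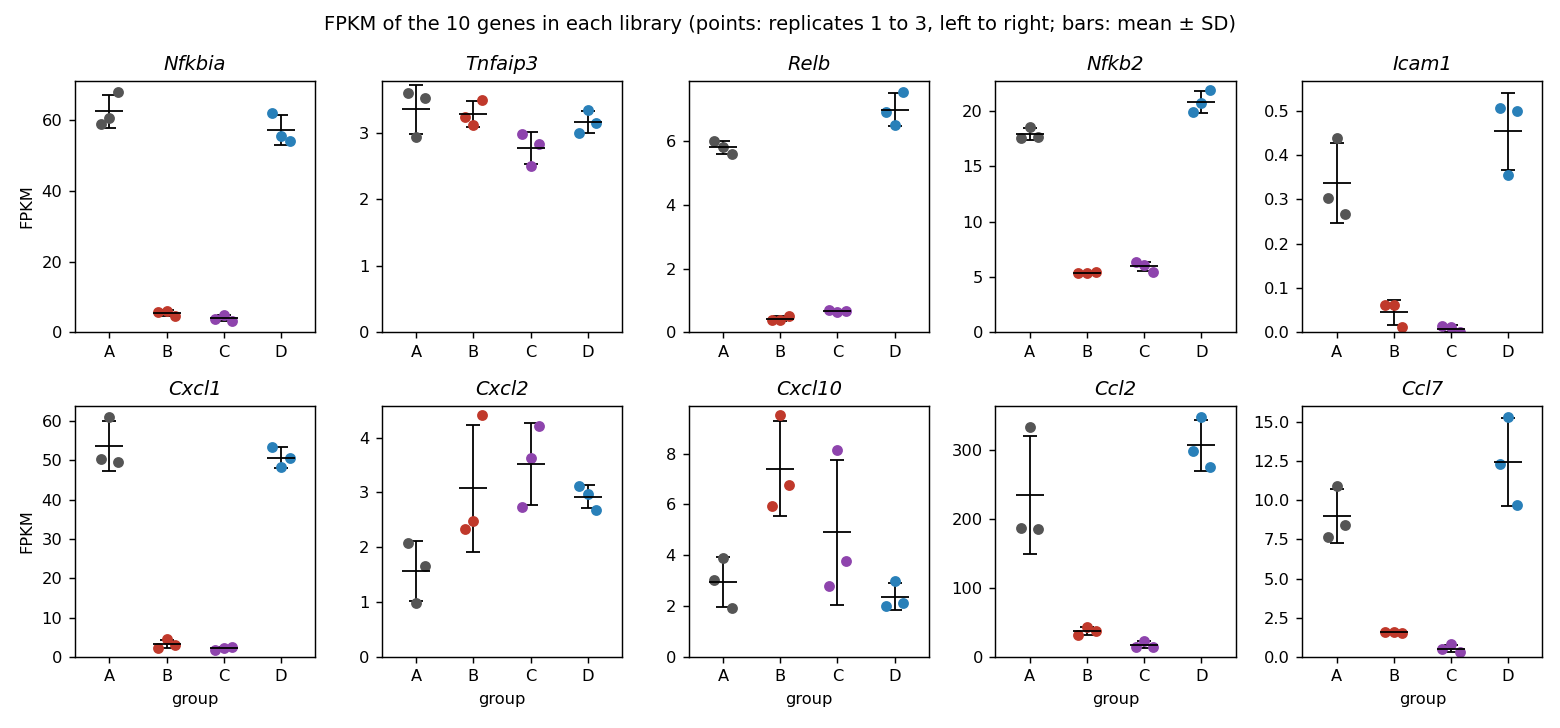
FPKM (vertical axes, linear from 0) of each of the 10 genes in groups A, B, C and D, with 1 point per library and bars for mean ± SD (n = 3). Relb, Nfkb2, Nfkbia, Icam1, Cxcl1, Ccl2 and Ccl7 were lower in groups B and C than in groups A and D, Tnfaip3 stayed between 2.50 and 3.596 FPKM, and Cxcl10 was highest in group B.

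The first question was how copper loading with the ionophore alone changed these genes (group B vs. A). Cu/ES lowered Nfkbia, Relb, Nfkb2, Cxcl1, Ccl2 and Ccl7, raised Cxcl10, and left Tnfaip3 with no detected change on this scale. In counts, 6 of the 9 members tested were lower and 1 was higher past both thresholds, where 53.0% of all genes tested were lower and 10.1% higher. The 9 members had a median change of -1.95, against -1.10 for all genes tested, and 6 of the 9 were below the all-gene median. The libraries of groups B and A did not overlap for 8 of the 9, where 92.9% of all genes tested did not overlap.

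Among the regulators, Nfkbia measured 59.0, 60.7 and 67.9 FPKM in the libraries of group A and 5.83, 6.12 and 4.49 FPKM in those of group B. Every untreated library was far above every Cu/ES library, and the group means differed 11.4-fold (log2 fold change -3.30, SE 0.12, adjusted p = 4.017e-12). Relb, the partner of processed p100, measured 6.01, 5.83 and 5.59 FPKM in group A and 0.370, 0.381 and 0.523 FPKM in group B. The groups did not overlap and the means differed 13.7-fold (log2 fold change -2.26, SE 0.08, adjusted p = 2.629e-12). Nfkb2, its precursor partner, measured 17.6, 18.5 and 17.7 FPKM in group A and 5.35, 5.39 and 5.45 FPKM in group B. This fall was smaller, 3.33-fold, and tightly repeated (log2 fold change -1.57, SE 0.07, adjusted p = 2.707e-11). The ratio of Nfkb2 to Relb was 3.09 ± 0.14 in group A against 13.0 ± 2.25 in group B (SD, n = 3).

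Tnfaip3 behaved differently from Nfkbia. It measured 3.596, 2.93 and 3.52 FPKM in group A and 3.23, 3.11 and 3.49 FPKM in group B. The groups overlapped and the log2 fold change was -0.02 (SE 0.09, adjusted p = 0.815), while median-ratio scaling, which takes out the shift of the median gene, gave 0.998 and quantile normalization gave 1.35. On TPM it was lower, at -0.35 (limma, adjusted p = 0.0133), under the fold threshold. The ratio of Nfkbia to Tnfaip3, which no scale factor applied to a whole library can alter, was 18.8 ± 2.2 in group A against 1.69 ± 0.355 in group B (SD, n = 3). Its lowest value in an untreated library was 16.4, and its highest with Cu/ES was 1.96.

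Icam1 was too low for the test. The libraries of group A held 30, 44 and 27 recovered reads of it, and those of group B held 5, 5 and 1, so that all 3 untreated libraries were above all 3 Cu/ES libraries. Summed over the libraries these were 101 and 11 reads. On the recovered reads without a filter, limma-voom gave a log2 fold change of -2.93 (SE 0.60, adjusted p = 0.000412), and on log2(FPKM + 1) without a filter the change was -0.35 (adjusted p = 0.000167).

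The CXC chemokines divided. Cxcl1, a neutrophil attractant, measured 50.3, 61.0 and 49.6 FPKM in group A and 2.28, 4.42 and 3.10 FPKM in group B. The groups were widely separate, and the 16.4-fold lower mean was the largest ratio among the 9 members tested (log2 fold change -3.70, SE 0.15, adjusted p = 7.878e-12). Its neighbour Cxcl2, with the same kB site, measured 2.07, 0.973 and 1.65 FPKM in group A and 2.33, 2.48 and 4.41 FPKM in group B. Here the Cu/ES libraries were all above the untreated ones, by 1.96-fold in the mean, which passed the adjusted p and not the fold threshold (log2 fold change 0.65, SE 0.19, adjusted p = 0.00502). The ratio of Cxcl1 to Cxcl2 was 39.0 ± 20.7 in untreated cells, at least 24.3 in each library, and 1.15 ± 0.56 with Cu/ES (SD, n = 3), where Cxcl1 was below Cxcl2 in replicates 1 and 3. Cxcl10 measured 3.01, 3.87 and 1.93 FPKM in group A and 5.93, 9.51 and 6.76 FPKM in group B. All Cu/ES libraries lay above all untreated ones, with a mean 2.52-fold higher (log2 fold change 1.10, SE 0.28, adjusted p = 0.00172). Its log2 fold change was under the fold threshold without replicate 3 of group A (0.90) or replicate 2 of group B (0.93). The adjusted p stayed at or under 0.0111 with single libraries left out.

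Of the CC chemokines, Ccl2 measured 186.2, 332.7 and 184.6 FPKM in group A and 31.0, 42.7 and 37.3 FPKM in group B. It was the most abundant member in both groups despite a 6.34-fold lower mean (log2 fold change -2.59, SE 0.22, adjusted p = 3.503e-08). Ccl7, the next gene in RefSeq order, measured 7.63, 10.9 and 8.43 FPKM in group A and 1.58, 1.60 and 1.501 FPKM in group B. It fell 5.77-fold with no overlap (log2 fold change -1.95, SE 0.16, adjusted p = 1.89e-08). The ratio of Ccl2 to Ccl7 was 25.6 ± 4.37 in group A against 23.7 ± 3.61 in group B, with overlapping ranges. Of the summed FPKM of the 5 chemokines, Ccl2 made up 77.0% ± 3.7 without Cu/ES and 70.8% ± 0.945 with it, and Cxcl10 made up 0.979% ± 0.215 and 14.1% ± 1.49 (SD, n = 3).

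**Figure D2:**
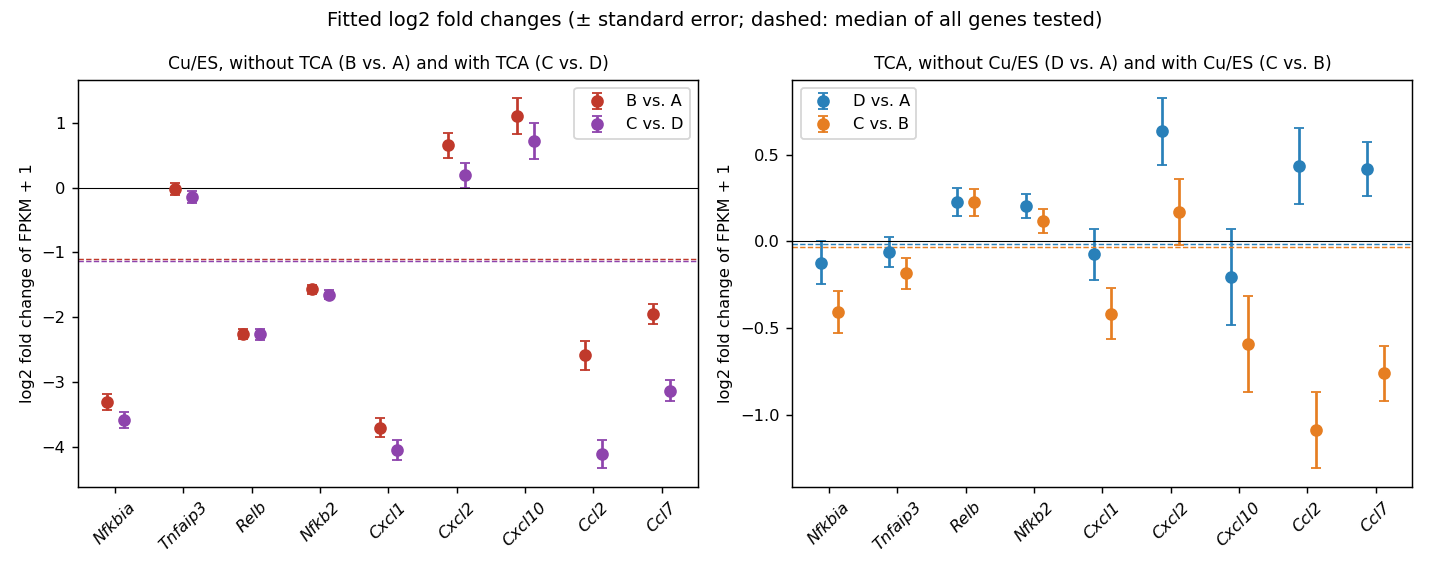
Log2 fold changes of FPKM + 1 with standard errors for the 9 members tested, with Cu/ES against without it on the left (groups B vs. A and C vs. D) and with TCA against without it on the right (groups D vs. A and C vs. B, on a narrower axis), dashed lines marking the median of all genes tested. On the left, 6 members lay below the dashed lines at -1.10 and -1.13, and on the right only Ccl2 passed -1.

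How the shift of the median gene was treated changed part of this picture. Under median-ratio scaling 4 members were lower (Nfkbia, Relb, Cxcl1 and Ccl2) and 2 higher (Cxcl2 and Cxcl10) in group B vs. A, where 24.5% of all genes tested were lower and 26.9% higher. Quantile normalization gave 3 lower and 3 higher, where 2353 of the 10615 genes tested were lower and 2198 higher. TPM gave 6 lower and 0 higher, where 6724 genes were lower and 847 higher. Nfkb2 and Ccl7 kept an adjusted p under the threshold but not the fold, with log2 fold changes of -0.36 and -0.92 under median-ratio scaling. Cxcl2 rose past both thresholds there, by 1.53, and Cxcl10 by 2.16. Under TPM the log2 fold change of Cxcl10 was 0.90 and that of Cxcl2 was 0.50 (adjusted p = 0.0515).

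**Figure D3:**
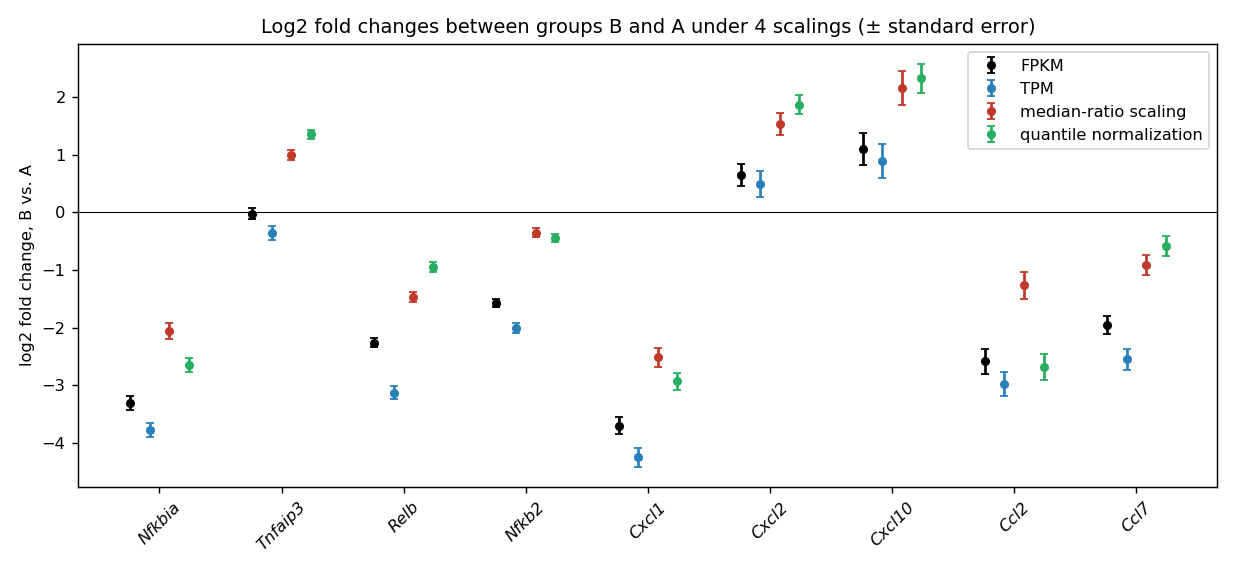
Log2 fold changes (vertical axis) with standard errors for group B vs. A in the 9 members tested, computed from FPKM, TPM, median-ratio scaled and quantile normalized values. Nfkbia and Cxcl1 lay below -2 and Cxcl2 and Cxcl10 above 0 under all 4 scalings, while Tnfaip3 ran from -0.35 to 1.35.

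The comparison of group C vs. D asked the same of Cu/ES in cells that also received TCA, and it shares no library with B vs. A. Again 6 of the 9 members tested were lower past both thresholds, where 53.3% of all genes tested were. With limma 0 were higher, as with limma-voom, where 11.2% of all genes tested were. At an unadjusted p under 0.05 there was 1 higher. The share of all genes there was not counted, but 2218 of the 10615 were higher past the adjusted p. The 6 lower members were Nfkbia, Relb, Nfkb2, Cxcl1, Ccl2 and Ccl7, as in B vs. A. Under median-ratio scaling 5 were lower and 2 higher (Cxcl2 and Cxcl10), where 25.0% of all genes tested were lower and 27.8% higher. Quantile normalization gave 4 lower and 3 higher, where 2448 of the 10615 genes tested were lower and 2269 higher. By the ratio of group means, Ccl7 and Cxcl1 were lowest among the 9 members tested, 23.8-fold and 23.7-fold below group D, followed by Ccl2 at 17.8-fold. Ccl2 went from 297.5, 346.8 and 274.2 FPKM in group D to 14.3, 23.1 and 14.1 FPKM in group C (log2 fold change -4.11). Nfkbia measured 62.2, 55.7 and 54.2 FPKM in group D and 3.65, 4.83 and 3.22 FPKM in group C (log2 fold change -3.59). Both genes were many times lower in each library that received Cu/ES.

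Cxcl1 went from 53.4, 48.3 and 50.6 FPKM in group D to 1.80, 2.25 and 2.37 FPKM in group C, a log2 fold change of -4.05. Ccl7, Relb and Nfkb2 changed by -3.13, -2.26 and -1.65. Tnfaip3 measured 2.99, 3.33 and 3.15 FPKM in group D and 2.98, 2.50 and 2.83 FPKM in group C, and the log2 fold change of -0.14 did not pass (adjusted p = 0.132) and turned to 0.89 under median-ratio scaling. On TPM it was -0.42 (limma, adjusted p = 0.00455). Cxcl10 was higher by 0.71 (limma, adjusted p = 0.0246), not past the fold threshold and with libraries that overlapped between the groups. Without replicate 2 of group C its log2 fold change was 0.34 (adjusted p = 0.146). The call was also lost without replicate 1 or 3 of group D (adjusted p = 0.0742 and 0.0655) and on TPM (0.0839). Icam1 had 52, 36 and 51 reads in group D against 1, 1 and 0 in group C. Cxcl2 did not pass: 3.11, 2.97 and 2.69 FPKM in group D overlapped with 2.73, 3.62 and 4.20 FPKM in group C, and the log2 fold change was 0.19 on FPKM, -0.03 on TPM and 1.24 under median-ratio scaling (adjusted p = 0.347 on FPKM).

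The next question was what TCA added to Cu/ES (group C vs. B). Ccl2 fell further, and it was the 1 member of 9 past both thresholds, where 1.16% of all genes tested were lower and 1.13% higher. It measured 31.0, 42.7 and 37.3 FPKM in group B and 14.3, 23.1 and 14.1 FPKM in group C. No library of group C reached the lowest of group B, and the mean was 2.16-fold lower (log2 fold change -1.09, SE 0.22, adjusted p = 0.00125). Without replicate 2 of group B, replicate 1 of group C or replicate 3 of group C, the log2 fold change of Ccl2 came within 1 of 0 (-0.97 at the nearest) while the adjusted p stayed at or under 0.00793 in all 6 such fits. Ccl7 measured 1.58, 1.60 and 1.501 FPKM in group B and 0.472, 0.787 and 0.309 FPKM in group C, a 2.98-fold lower mean. On the log2(FPKM + 1) scale its change was -0.76 (SE 0.16, adjusted p = 0.00148), under the fold threshold, and on TPM it was -1.01.

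Past the adjusted p alone there were 5 members, 4 lower and 1 higher, where 44.0% of all genes tested passed, 23.6% lower and 20.4% higher. Besides Ccl2 and Ccl7, Nfkbia and Cxcl1 were lower by -0.41 and -0.42 (adjusted p = 0.0153 and 0.0342), with libraries that overlapped between the groups. Relb was higher, at 0.687, 0.645 and 0.658 FPKM in group C against 0.370, 0.381 and 0.523 FPKM in group B, 1.56-fold without overlap (log2 fold change 0.23, adjusted p = 0.0352). These 3 calls were lost in part of the alternatives, among them leaving out single libraries. Cxcl10 spread widely in group C, at 2.78, 8.14 and 3.77 FPKM, and its change of -0.59 did not pass (adjusted p = 0.0989). Without replicate 2 of group C it was -0.96 (adjusted p = 0.00264). Tnfaip3, Nfkb2 and Cxcl2 had log2 fold changes of -0.18, 0.12 and 0.17 and did not pass. Libraries did not overlap for 5 of the 9 members, where 49.2% of all genes tested did not overlap.

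TCA on its own (group D vs. A) moved few of these genes past a threshold. With limma 0 of the 9 members passed both thresholds, as with limma-voom, where 0.217% of all genes tested did. At an unadjusted p under 0.05 there were 4, all higher. The share of all genes at that threshold was not counted, but it is at least the 22.0% that passed the adjusted p. Of the 4 members, 1 passed the adjusted p. That gene was Cxcl2, at 2.07, 0.973 and 1.65 FPKM in group A and 3.11, 2.97 and 2.69 FPKM in group D, with no overlap and a 1.87-fold higher mean (log2 fold change 0.63, SE 0.19, adjusted p = 0.0308). Without replicate 2 of group A, the lowest library, it was 0.46 (adjusted p = 0.117), and under median-ratio scaling 0.53 (adjusted p = 0.0831). Relb and Nfkb2 were higher in every library of group D than in any of group A, at 6.94, 6.50 and 7.54 FPKM and at 19.9, 20.8 and 21.9 FPKM, but their changes of 0.23 and 0.21 had an adjusted p of 0.0565 and 0.0514. Both passed the adjusted p with limma-voom on recovered reads (0.0171 and 0.0190) and with quantile normalization (0.025 and 0.0194). Neither passed with TPM (0.154 and 0.130) or median-ratio scaling (0.0930 and 0.0713). Ccl2 and Ccl7 differed by 0.43 and 0.42 with overlapping libraries (adjusted p = 0.177 and 0.0733). Leaving out replicate 2 of group A, in which both were highest, gave 0.71 and 0.55 (adjusted p = 0.0187 and 0.0325). That fit kept replicate 2 of group D, in which both were also highest. Nfkbia, Tnfaip3, Cxcl1 and Cxcl10 had log2 fold changes from -0.20 to -0.06 and overlapped between the groups.

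Whether TCA acted differently with and without Cu/ES was tested as an interaction, the change of group C vs. B less that of D vs. A. Ccl2 and Ccl7 passed both thresholds, which 1.73% of all genes tested did in that direction. For Ccl2 the difference was -1.52 (SE 0.31, adjusted p = 0.00212), made of -1.09 with Cu/ES and 0.43 without it. For Ccl7 it was -1.18 (SE 0.22, adjusted p = 0.00125), made of -0.76 and 0.42. Neither call was lost under any alternative, and with single libraries left out the values ran from -1.80 to -1.38 and from -1.33 to -1.03. The other 7 members did not pass, with differences from -0.46 for Cxcl2 to -0.00 for Relb.

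The libraries of replicate 2 stood apart for some of the chemokines. Ccl2, Ccl7 and Cxcl10 were each highest in replicate 2 of all 4 groups, as were 403 of the genes tested (3.8%), against 128 (1.21%) for replicate 1 and 174 (1.64%) for replicate 3. In group A, Ccl2 in replicate 2 was 1.79 times the group's median library, and in group C Cxcl10 was 2.16 times it. In group B the excess of Ccl7 was 1.02 times, within a narrow range. The labels do not say what a replicate number stands for.

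**Figure D4:**
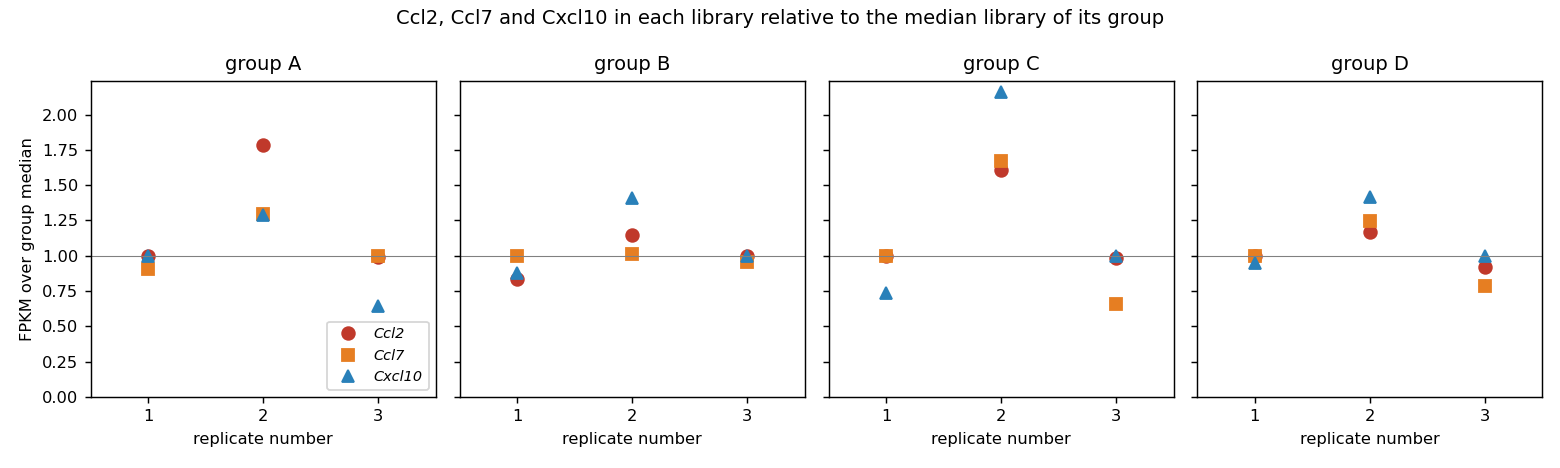
FPKM of Ccl2, Ccl7 and Cxcl10 divided by the median library of the group (vertical axis, linear from 0) for replicates 1, 2 and 3 (horizontal axis) in each group. Replicate 2 was the highest library for each of the 3 genes in all 4 groups, by 1.02 to 2.16 times the median.

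The wider pathway was described from lists that do not hold the 10 genes. Of 41 genes of the signalling machinery (receptors, adaptors, kinases and NF-kB subunits), all were tested, 28 were lower and 2 higher in group B vs. A, where 53.0% of all genes were lower and 10.1% higher, and their median change was -1.72 on the log2 scale. Under median-ratio scaling 9 were lower and 6 higher, where the shares of all genes were 24.5% and 26.9%. Among the subunits, Rela fell from 25.6 ± 0.574 to 7.89 ± 0.770 FPKM (log2 fold change -1.59, adjusted p = 3.175e-11) and Rel by -1.38, which quantile normalization turned to 0.01. Nfkb1 changed by -0.68, past the adjusted p only, and by 0.61 under median-ratio scaling. The IKK subunits Ikbkb and Ikbkg, kinase and scaffold, had log2 fold changes of -0.05 and 0.04 that did not pass, and 1.17 and 1.21 under median-ratio scaling. Chuk, the other kinase subunit, changed by -0.48, and by 0.74 under median-ratio scaling.

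On the log2(FPKM + 1) scale, which understates falls to near 0, the 3 largest changes in the machinery were falls. They were in Tab1, an activator of the TAK1 kinase (-2.93), Irak1, a kinase of the interleukin-1 receptor pathway (-2.79), and Tlr2, a receptor for bacterial lipopeptides (-2.63). The 2 genes that were higher, named after their values were seen, were the inhibitor Nfkbib (16.8 to 61.7 FPKM, log2 fold change 1.81) and the TWEAK receptor Tnfrsf12a (139.7 to 314.1 FPKM, 1.16). Nfkbib, encoding IκBβ, was higher where Nfkbia was lower. In group C vs. B, 0 machinery genes passed both thresholds in either direction with limma, where 1.13% of all genes tested were higher and 1.16% lower. Past the adjusted p alone 12 were higher and 4 lower, where 20.4% of all genes tested were higher and 23.6% lower. Rela was among those that were higher, from 7.89 to 10.96 FPKM (log2 fold change 0.43, adjusted p = 3.182e-04).

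Of 48 other NF-kB targets, 45 were in the table and 31 were tested, with 19 lower and 3 higher in group B vs. A (median log2 fold change -1.63), and 11 lower and 8 higher under median-ratio scaling, beside the same shares of all genes (53.0% and 10.1%, then 24.5% and 26.9%). On the log2(FPKM + 1) scale, which understates falls to near 0, the value farthest from 0 was that of Gadd45b, a stress-response gene, which measured 7.76, 7.10 and 8.44 FPKM in group A and 251.0, 347.0 and 270.2 FPKM in group B (log2 fold change 5.04, adjusted p = 5.196e-13). Nos2, the inducible nitric oxide synthase, fell from 13.7 ± 0.957 FPKM to 1 read in each of the 3 Cu/ES libraries. Ninj1, which takes part in the rupture of dying cells' membranes, fell from 43.6 to 3.75 FPKM (log2 fold change -3.24). The other genes that were higher, named after their values were seen, were the cyclooxygenase Ptgs2 (61.3 to 362.1 FPKM, log2 fold change 2.55) and the growth factor Csf2 (2.73 to 11.6 FPKM, 1.76). In group C vs. B 1 gene passed both thresholds, where 1.16% of all genes tested were lower and 1.13% higher. It was Csf1, the growth factor of macrophages, from 14.97, 23.9 and 14.1 FPKM to 6.18, 8.58 and 5.45 FPKM (log2 fold change -1.25, SE 0.20, adjusted p = 2.486e-04). Its interaction was -1.58 (adjusted p = 9.648e-04), and like Ccl2 it was highest in replicate 2 of every group.

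**Figure D5:**
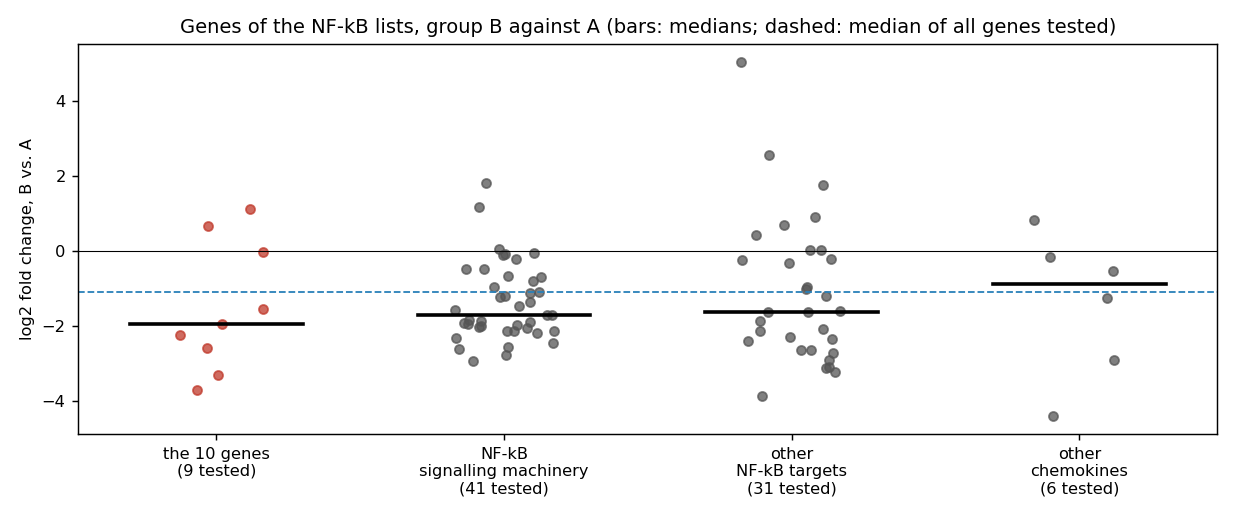
Log2 fold changes of group B vs. A (vertical axis) for the 9 members tested and for the tested genes of the machinery (41), other NF-kB targets (31) and other chemokines (6), 1 point per gene with bars at the medians and a dashed line at the all-gene median of -1.10. The medians of the members, the machinery and the other targets were -1.95, -1.72 and -1.63, that of the other chemokines was -0.90, and Gadd45b stood alone at 5.04.

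Of 33 other chemokines, 26 were in the table and 6 were tested, of which 3 were lower and 0 higher in group B vs. A (limma, with 1 higher past the adjusted p alone), at a median log2 fold change of -0.90. Of all genes tested, 53.0% were lower and 10.1% higher past both thresholds. Cx3cl1, the membrane-bound fractalkine, fell from 40.9 ± 9.08 to 0.944 ± 0.147 FPKM (log2 fold change -4.41), and Ccl20, which attracts dendritic cells and T cells, from 10.2 ± 3.20 to 0.496 ± 0.399 FPKM (-2.91). Ccl5 changed by -1.26, which was -0.07 under median-ratio scaling. Near Cxcl1, Cxcl10, Ccl2 and Ccl7 in gene order, chemokines Cxcl3, Cxcl15, Cxcl9 and Ccl11 were at or below 0.156 FPKM in all group means. Pf4, also near Cxcl1, reached 0.871 FPKM in group A, and Ccl8, near Ccl7, lay between 0.576 and 1.66 FPKM. None of the 20 chemokine receptors in the table reached the filter.

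Markers of other cell types were followed beside these genes. Of 10 macrophage and leukocyte markers in the table, 2 reached a mean FPKM of 1. The summed FPKM of the list was 79.4 to 108.3 in untreated cells, 27.4 to 32.9 with Cu/ES, 29.7 to 40.8 with Cu/ES plus TCA and 32.3 to 45.7 with TCA alone, most of it Cd68, while Ptprc, Adgre1 and C1qa stayed below 0.1 FPKM in each group mean. Other genes of the list went up from low levels: the means of groups A, B and C were 0.00732, 0.589 and 1.25 FPKM for Itgam, 0.00851, 0.705 and 2.63 FPKM for Cd79a, and 0.0221, 0.177 and 0.337 FPKM for Csf1r. The endothelial list, 3 of 7 genes above the filter, summed to between 1.04 and 1.25 FPKM in group A and between 0.916 and 1.30 in group D, against 10.5 to 15.2 in group B and a range of 23.9 to 26.9 in group C. It was led there by Pecam1, with means of 0.214, 6.85 and 16.1 FPKM in groups A, B and C. The stellate cell and fibroblast list, 3 of 7 genes above the filter, summed to between 140.2 and 206.8 FPKM in group A, between 121.3 and 183.3 in group D, between 3.47 and 5.75 in group B, and between 1.61 and 2.49 in group C, led by Col3a1 in groups A and D. Sums of the hepatocyte list lay from 599.9 to 651.7 FPKM in group A and from 255.9 to 306.9 in group B. Those of the cholangiocyte list lay from 920.2 to 1004.0 and from 1242.0 to 1406.0. Genes within both lists moved in opposite directions in group B vs. A. Most of the hepatocyte sum was Krt8 (mean 343.5 to 182.9 FPKM) and Krt18 (284.9 to 81.9), which fell. Afp (2.56 to 19.2) and Apoa1 (0.00863 to 1.86) rose. Among cholangiocyte markers, Spp1 (673.1 to 1190.0) and Sox9 (10.6 to 50.9) rose, whereas Krt19 (267.7 to 77.3) fell. The part of these markers in the changes of the 10 genes was not tested.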

How the data were processed

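Polyadenylated RNA of AML12 cells was extracted with TRIzol, made into libraries with a VAHTS kit and sequenced on an Illumina NovaSeq. The authors deposited FPKM values for 24824 genes, 1 column per library, listed by symbol. The submitters' processing notes name fastp, HISAT2, HTSeq and GRCm39, with no versions, and how they were set is not given in the sources used here.

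From the FPKM values, log2(FPKM + 1) was fitted with the 4 groups as terms in limma 3.58.1 (R 4.3.3, empirical Bayes with a trend), over all 12 libraries with 8 residual degrees of freedom and a filter at a mean FPKM of 1. Two-sided p-values were adjusted over 10615 genes (Benjamini-Hochberg). Exact permutation tests of 3 libraries against 3 cannot go below p = 0.1. Whole reads were recovered for 22212 of 22212 genes above 0 in at least 2 libraries, within 0.02 reads, giving totals of 29115011 to 39782142. They cover counting error only. Strand use in counting is not given in the sources used here.

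The 10 members and the gene lists were chosen with earlier results of these data known. Named beside the members are the 3 largest changes past both thresholds of each list in groups B vs. A and C vs. B, and the NF-kB and IKK subunits. Alternatives were a pseudocount of 0.1, no filter or one at 5, TPM, median-ratio and quantile scaling, a replicate block, no trend, only the groups compared, limma-voom on recovered reads and each library left out. Limma-voom without a filter was added after the data were seen. The limma steps were tested on simulated data. Promoters and gene order came from RefSeq (GRCm38.p6), another build than the submitters', so coordinates are those of RefSeq only. Tables used pandas 2.3.3, numpy 2.4.6 and scipy 1.17.1 in Python 3.11.15, and plots used matplotlib 3.10.9.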

Additional observations from a re-analysis of the deposited data

Results flagged for a closer look

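The difference in the effect of TCA with and without Cu/ES passed the test for Ccl2 and Ccl7. It was -1.52 for Ccl2 on the log2 scale (SE 0.31, adjusted p = 0.00212), with TCA giving -1.09 in the cells that received Cu/ES and 0.43 in those that did not. It was -1.18 for Ccl7 (SE 0.22, adjusted p = 0.00125), with -0.76 and 0.42. All 3 libraries of group C were below all 3 of group B for both genes, whereas groups D and A overlapped. No group had enough libraries for a check of single outlying values.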

How the results depend on the processing

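The count of members past both thresholds stayed within 1.5 times its value under every alternative in groups B vs. A (5 to 8), D vs. A (0) and C vs. D (5 to 7) and in the interaction (2). In group C vs. B the count of 1 became 2 with a pseudocount of 0.1, with TPM and with limma-voom with or without a filter, since Ccl7 then passed, and 0 with quantile normalization. Leaving out single libraries gave 0 to 1. Among single genes, Tnfaip3 in B vs. A (-0.02) became 0.998 with median-ratio scaling, 1.35 with quantile normalization and between -0.093 and 0.020 with single libraries left out. In C vs. D it became 0.89 and 1.16, and in D vs. A 0.030 with quantile normalization. With TPM Tnfaip3 was lower past the adjusted p in B vs. A (-0.35) and in C vs. D (-0.42). Cxcl2 in C vs. D was -0.034 with TPM, and Cxcl1 in D vs. A lay between -0.13 and 0.021 with single libraries left out, above 0 without replicate 2 of group A. The interaction of Relb (-0.00) was 0.29 with a pseudocount of 0.1, 0.14 with TPM, 0.10 with median-ratio scaling, 0.041 with quantile normalization, 0.40 with limma-voom with or without a filter, and between -0.048 and 0.045 with single libraries left out. In B vs. A, Rel was 0.01 with quantile normalization, Nfkb1 0.61 with median-ratio scaling, Ikbkb 1.17 and 1.03 and Chuk 0.74 and 0.65 with median-ratio scaling and quantile normalization, and Ikbkg -0.31 with TPM and between -0.035 and 0.099 with single libraries left out. Chuk in C vs. B lay between -0.015 and 0.17, below 0 without replicate 1 of group C. The causes of these changes were not tested. Median-ratio scaling moved the split of all genes in B vs. A from 1070 higher and 5622 lower to 2856 and 2600.

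Libraries with the same replicate number deviated together with a mean correlation of 0.125 (-0.171 to 0.579 over 18 pairs), against -0.059 for the others. Not every pair was above 0.1 and the labels do not say what a number stands for, so whether the numbers pair the libraries is not known. When the number was fitted as a replicate block, the counts of members past both thresholds were 7, 1, 0, 6 and 2, as without it. Calls by adjusted p were gained for Cxcl10 in C vs. B (adjusted p = 0.0109) and for Ccl2 and Ccl7 in D vs. A (0.018 and 0.0173). Counting limits Icam1 most, with 2 reads over group C.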

Other observations

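The share of Cxcl2 in the summed FPKM of the 5 chemokines was 0.58% ± 0.307 in untreated cells, 5.94% ± 2.16 with Cu/ES, 13.0% ± 3.75 with Cu/ES plus TCA and 0.783% ± 0.0656 with TCA alone (SD, n = 3). In group C, Cxcl2 exceeded Cxcl1 in each library, with a ratio of Cxcl1 to Cxcl2 of 0.614 ± 0.0484, against 17.4 ± 1.32 in group D. The ratio of Nfkb2 to Relb was 8.98 ± 0.568 in group C and 2.99 ± 0.178 in group D, and that of Nfkbia to Tnfaip3 was 1.43 ± 0.434 and 18.2 ± 2.21.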
